A study of Homo sapiens with 24 samples.

Results

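The genes described here serve the folding, oxidation and quality control of proteins in the endoplasmic reticulum (ER). They were chosen by name as a list of 36 genes: 13 chaperones and their helpers, 8 disulfide enzymes, 4 genes of stress sensing (the sensors ATF6, ERN1 and EIF2AK3 with the transcription factor XBP1), 9 genes of ER-associated degradation and 2 genes of the translocation channel. Each was read by its brightest expressed probe, a probe that lay above its array's median on at least 2 arrays. Of the 36 genes, 35 had such a probe, out of 15246 genes tested in all. HERPUD1, a stress-induced membrane component of the degradation machinery, had no probe in the annotation used.

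Proteins that enter the secretory pathway pass through the SEC61 channel into the ER, where chaperones of the HSP70 and HSP90 families hold them, lectin chaperones such as calnexin and calreticulin bind their sugars, and protein disulfide isomerases join their cysteines. The disulfide isomerases are re-oxidised by ERO1 enzymes, which pass the electrons to oxygen. When unfolded proteins accumulate, the sensors ERN1 (IRE1), EIF2AK3 (PERK) and ATF6 start the unfolded protein response, in which ERN1 splices XBP1 messenger RNA and XBP1 and ATF6 raise the genes of folding and degradation. Hepatocytes secrete much protein and rely on this machinery.

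Total RNA of 24 samples of cells labelled Huh-7, an established human hepatocellular carcinoma line, was hybridised to Illumina bead arrays. All cells stably carried a short hairpin RNA, lentiviral for HIF1A and NDRG3 per the labels, and the labels set apart no more than 1 hairpin per target: against HIF1A (shHIF1A), which encodes a transcription factor subunit that oxygen destabilises, against NDRG3 (shNDRG3), which belongs to the NDRG gene family, or against GFP (shGFP, the control). In 1% oxygen, shHIF1A cells were taken at 3 h (3 arrays), 6 h (2 arrays) and 12 h (2 arrays), and shNDRG3 cells with 2 arrays at each of 6, 12 and 24 h. Of the shGFP cells there were 3 arrays at 3 h, 2 at each of 6, 12 and 24 h, and 2 in normoxia. The labels do not say that the arrays of a group came from separate cultures, so a p-value here covers only array-to-array spread, which may be technical. Knockdown arrays in normoxia were not analysed here, so an effect of a hairpin on the response to hypoxia cannot be told apart from a difference between the lines before hypoxia or from an off-target effect. Hours in hypoxia and hours in culture cannot be told apart either, since all times share 1 normoxia baseline.

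The levels below are log2 of the quantile-normalised signal, on which the median of every array was 7.03. Changes are differences of group means ± the standard error of limma's fit, and called means an adjusted p under 0.05 from limma with Benjamini-Hochberg adjustment over all 15246 genes. HIF1A lay between 8.81 and 9.67 on the shHIF1A arrays and NDRG3 between 8.24 and 8.60 on the shNDRG3 arrays, below every shGFP array (10.48 to 11.11 for HIF1A and 10.34 to 10.81 for NDRG3). Among 16 hepatocyte markers with a probe, only FOXA1 exceeded 2 array medians in shGFP normoxia. Albumin (ALB) was 0.92 above the median, and AFP, APOA1, TTR and TF lay below it. These markers thus show little hepatocyte identity or secretion, and the name Huh-7 rests on the labels. Of the other lists, COL1A1 of 8 fibroblast markers and CD68 of 7 blood markers exceeded that bound, and no marker of 6 in the endothelial list did. The 2 shNDRG3 arrays at 24 h stood apart from each other, with a median absolute difference over the 35 members of 0.34. Between replicates 1 and 2 of the other groups it was 0.06 to 0.17. Over all genes it was 0.21, against 0.09 to 0.17 in the other groups. Replicate 2 was the higher array for 25 of the 35 members, a count near the 24 of shGFP normoxia, but by a larger median difference (0.28, against 0.05). Values without each of the shNDRG3 24 h arrays are given below where a call or a value depends on them. Transcripts from fewer cells and less RNA per cell cannot be told apart in such bulk samples.

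Probes of the isomerase PDIA3, the second ERO1 enzyme ERO1B, the degradation adaptor SEL1L and the export protein DERL3 lay between 6.65 and 7.40 on all arrays, close to the array median, a level at which changes are barely visible. That of ERN1 exceeded 7.04 only in shGFP cells at 24 h, the group through which it passed the filter, so its comparisons with that group had to differ and are given as description.

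The response of the shGFP line to hypoxia was gradual and ran in both directions. After 24 h, 10 of the 35 members were higher and 13 lower than in normoxia, against 21.1% higher and 24.2% lower among all genes. The 10 include ERN1, whose call was fixed by the filter. The median change of the members was -0.05, against -0.00 over all genes. At 3 h the only called member was ERO1A (background 1.28% higher and 0.203% lower), at 6 h ERO1A and EDEM1 were higher (background 3.25% higher and 1.62% lower), and at 12 h 4 members were higher and 2 lower (background 13% and 12.2%). The 12 h balance depended on the processing. On the scale of the deposited signals 2 members were higher and 11 lower, against 683 and 4832 of all 15246 genes. Array weights gave 5 and 8, against 2375 and 2199. Fitting only the arrays compared gave 5 and 7, against 2235 and 2052. No member was called lower at 3 h or 6 h, where 3 and 1 members were lower at an unadjusted p under 0.05. The arrays grew dimmer with time. On the scale of the deposited signals the all-gene median shifted by -0.09, -0.17, -0.25 and -0.41 at 3, 6, 12 and 24 h. At 24 h 3 members were then higher and 23 lower, against 1098 and 9035 of all genes. With arrays centred on their medians the split at 24 h was 6 higher and 14 lower, against 2103 and 4474 of all genes. Directions below are those after quantile normalisation.

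**Figure D1:**
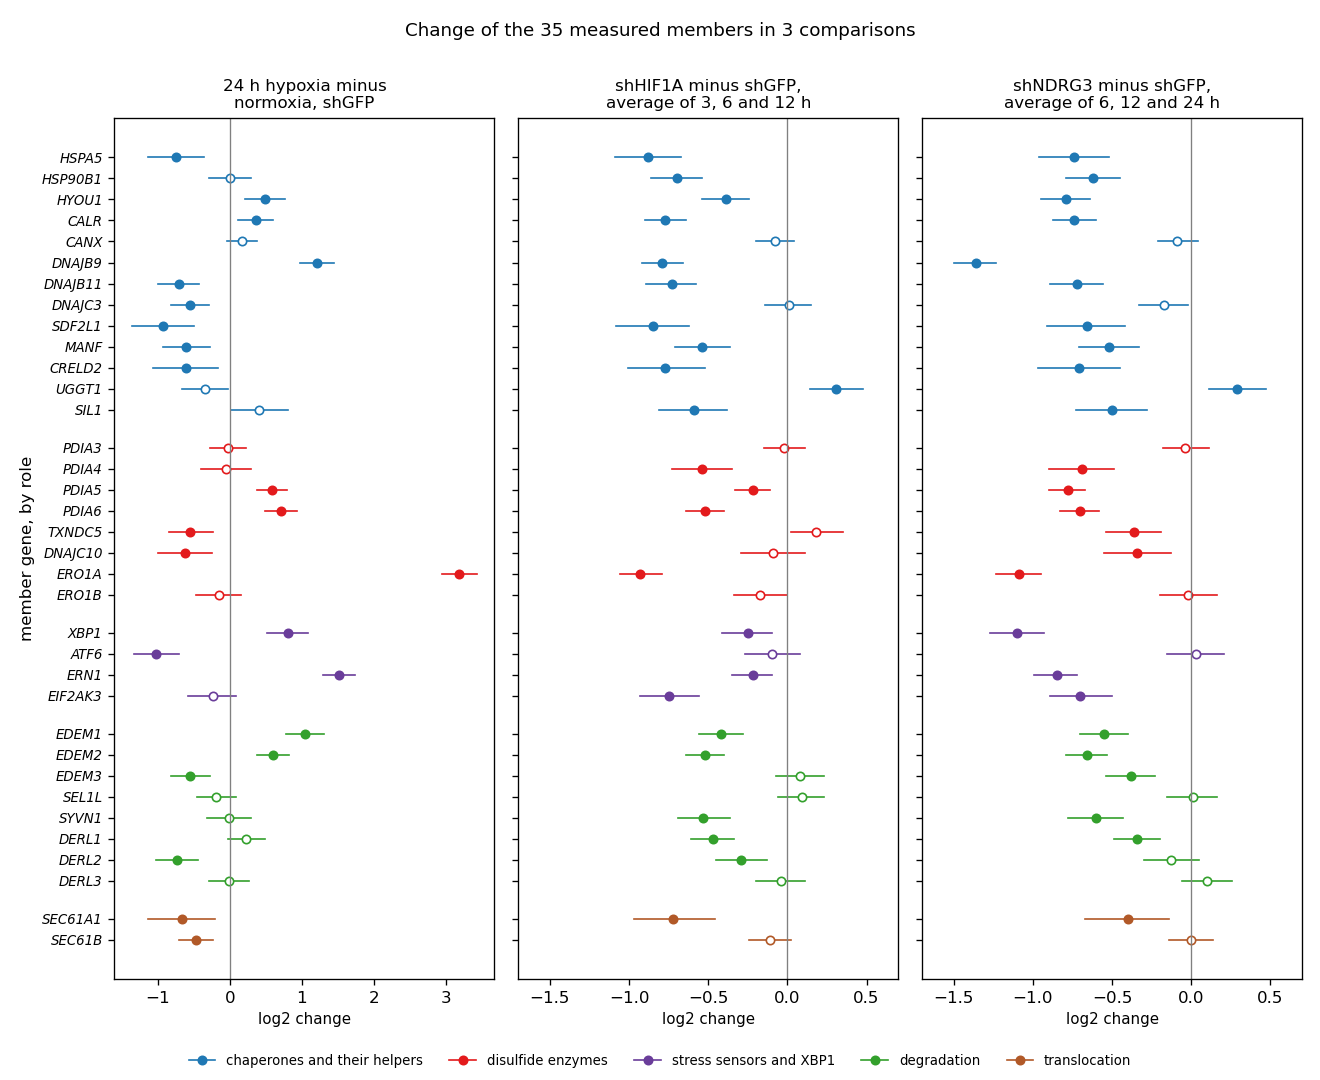
Log2 change (x axis) of the 35 measured members (y axis, coloured by role) in 24 h hypoxia minus normoxia of the shGFP line (left), in shHIF1A minus shGFP averaged over 3, 6 and 12 h (middle) and in shNDRG3 minus shGFP averaged over 6, 12 and 24 h (right). Points are limma estimates, lines 95% intervals and filled points adjusted p under 0.05. After quantile normalisation the left panel, with its own scale, shows 10 members higher and 13 lower. The other panels show 23 and 25 members lower and UGGT1 as the called member on the other side in each. ERN1, which passed the filter through shGFP cells at 24 h, is among the 10 and the 25.

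Among the disulfide enzymes, ERO1A stood out. This oxidase, which transfers electrons from protein disulfide isomerases to oxygen and is a known HIF target, had 10.27 and 10.33 in normoxia, 10.73, 10.91 and 10.89 by 3 h, 11.59 and 11.77 by 6 h, 12.87 and 12.59 by 12 h and 13.32 and 13.64 by 24 h. No array of a later time lay below any array of an earlier one. At 24 h it was 9.08-fold above normoxia (log2 3.18 ± 0.12, adjusted p = 9.48e-16), the largest rise among the members. Its call at 3 h (0.54 ± 0.11, adjusted p = 0.00639) was lost without shGFP normoxia replicate 1 (0.52, adjusted p = 0.134).

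The other disulfide enzymes divided after 24 h. The isomerase PDIA6 had 12.22 and 12.29 at 24 h, against 11.50 and 11.59 in normoxia (0.71 ± 0.11, adjusted p = 5.09e-06). PDIA5 had 10.58 and 10.68 at 24 h, against 9.98 and 10.11 in normoxia (0.59 ± 0.10, adjusted p = 2.63e-05). The groups did not overlap in either gene. DNAJC10 (ERdj5), a reductase that opens disulfides of proteins bound for degradation, fell to 10.14 and 9.96 at 24 h, against 10.66 and 10.68 in normoxia (-0.62 ± 0.18, adjusted p = 0.00592). The isomerase TXNDC5 fell to 12.05 and 12.22, against 12.60 and 12.77 in normoxia (-0.55 ± 0.15, adjusted p = 0.0034), but its dimmer probe gave 0.08. PDIA4, a large isomerase of the chaperone complex, had 9.71 and 9.88 at 24 h, against 9.67 and 10.02 in normoxia, and the groups overlapped (-0.05 ± 0.17, adjusted p = 0.851). The call of TXNDC5 was lost without shGFP 24 h replicate 1 (-0.46, adjusted p = 0.0501), and that of DNAJC10 without shGFP 24 h replicate 2 (-0.53, adjusted p = 0.0668).

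Sensing genes moved late. ERN1, the kinase and nuclease that splices XBP1 messenger RNA, averaged 6.98 ± 0.02 in normoxia (SD, n = 2) and had 6.61, 6.57 and 6.64 by 3 h, 6.80 and 6.90 by 6 h, 7.03 and 7.04 by 12 h and 8.41 and 8.58 by 24 h. The 24 h arrays lay above all earlier ones (1.51 above normoxia). The baseline was at the array median, so this change may be understated, which was not tested. XBP1 had 13.16 and 13.28 at 24 h, against 12.43 and 12.40 in normoxia (0.81 ± 0.14, adjusted p = 3.86e-05), after 12.00 to 12.26 at the times between. Which splice form the XBP1 probes read is not given in the sources used here. ATF6, the sensor that is cut in the Golgi into a transcription factor, fell to 10.92 and 10.93 at 24 h, against 11.98 and 11.91 in normoxia (-1.02 ± 0.15, adjusted p = 6.25e-06), the largest fall among the members. EIF2AK3, the kinase that slows translation, had 9.25 and 8.63 at 24 h, against 9.10 and 9.27 in normoxia, and was not called (-0.24 ± 0.16, adjusted p = 0.247).

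**Figure D2:**
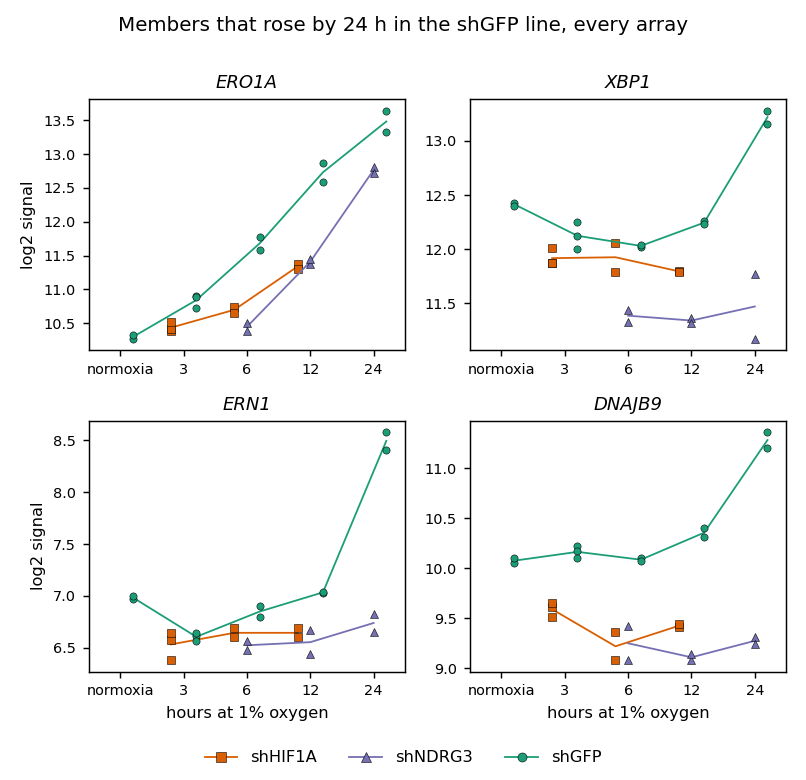
Log2 signal (y axes) of ERO1A, XBP1, ERN1 and DNAJB9 on every array against hours at 1% oxygen (x axes, evenly spaced, normoxia at the left), for the shHIF1A, shNDRG3 and shGFP lines; lines join group means. In shGFP cells ERN1 reached 8.41 and 8.58 at 24 h, while the shNDRG3 arrays at 24 h had 6.83 and 6.65.

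Of the 13 chaperones and helpers, 3 were higher and 6 lower at 24 h, beside the 21.1% higher and 24.2% lower of all genes. DNAJB9 (ERdj4), a co-chaperone of HSPA5 that restrains ERN1, rose to 11.36 and 11.20, against 10.05 and 10.10 in normoxia (2.31-fold, log2 1.21 ± 0.11, adjusted p = 6.24e-09). HYOU1, a nucleotide exchange factor for HSPA5, had 9.78 and 10.11 at 24 h, against 9.44 and 9.46 in normoxia (0.49 ± 0.13, adjusted p = 0.00387). Calreticulin (CALR) had 13.10 and 13.15 at 24 h, against 12.60 and 12.93 in normoxia (0.36 ± 0.12, adjusted p = 0.0137). With the signals as deposited, HYOU1 and CALR turned to -0.15 and -0.20. Their calls also rested on single arrays: without shGFP 24 h replicate 2 HYOU1 gave 0.32 (adjusted p = 0.113) and CALR 0.33 (adjusted p = 0.0804), and without normoxia replicate 1 CALR gave 0.20 (adjusted p = 0.26).

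HSPA5 (BiP), the HSP70 chaperone of the ER whose rise is the usual sign of an unfolded protein response, was lower. It had 10.61 and 10.67 in normoxia, 10.58 to 10.73 by 3 h, 10.61 and 10.46 by 6 h, 9.97 and 10.00 by 12 h and 9.90 and 9.89 by 24 h. The 12 h and 24 h arrays did not overlap the earlier ones (24 h, -0.74 ± 0.18, adjusted p = 0.00174; 12 h, -0.66 ± 0.18, adjusted p = 0.0102). SDF2L1, which works with HSPA5 co-chaperones, fell to 11.88 and 11.78 at 24 h, against 12.67 and 12.85 in normoxia (-0.93 ± 0.21, adjusted p = 0.000619). The co-chaperone DNAJB11 (ERdj3) fell to 13.47 and 13.38, against 14.17 and 14.11 in normoxia (-0.71 ± 0.14, adjusted p = 0.000134). MANF, a secreted factor that binds HSPA5, fell by 0.61 ± 0.16 (adjusted p = 0.00242), CRELD2, a stress-induced disulfide-rich protein, by 0.61 ± 0.22 (adjusted p = 0.0237) and DNAJC3 (P58IPK), a co-chaperone and inhibitor of PERK, by 0.55 ± 0.13 (adjusted p = 0.001). The 12 h call of HSPA5 was lost without normoxia replicate 2 (-0.62, adjusted p = 0.0626) or without either 12 h array (-0.64 and -0.67, adjusted p = 0.0599 and 0.0539). That of CRELD2 at 24 h was lost without normoxia replicate 1 or 2 (-0.54 and -0.68, adjusted p = 0.123 and 0.052) or 24 h replicate 1 (-0.47, adjusted p = 0.183). HSP90B1 (GRP94), the HSP90 of the ER, had 14.20 and 14.28 at 24 h, against 14.28 and 14.20 in normoxia (0.00 ± 0.14, adjusted p = 0.992). CANX (0.17 ± 0.10), UGGT1, the glucosyltransferase that tags misfolded glycoproteins (-0.35 ± 0.15), and SIL1, another exchange factor (0.41 ± 0.19), were not called.

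The degradation members that trim mannose from misfolded glycoproteins went separate ways. EDEM1 had 9.63 and 9.85 in normoxia, 9.96 to 10.14 by 3 h, 10.40 and 10.18 by 6 h, 10.82 and 10.63 by 12 h and 10.84 and 10.72 by 24 h (24 h, 1.04 ± 0.13, adjusted p = 2.93e-07). EDEM2 had 10.96 and 11.01 at 24 h, against 10.37 and 10.41 in normoxia (0.60 ± 0.11, adjusted p = 6.86e-05). EDEM3 fell to 8.95 and 9.03 at 24 h, against 9.51 and 9.57 in normoxia (-0.55 ± 0.13, adjusted p = 0.00128). None of these groups overlapped, but with the signals as deposited EDEM2, like PDIA5, turned (-0.06 and -0.09). DERL2, a membrane protein of the export channel, fell by 0.73 ± 0.14 (adjusted p = 0.000154) by its brightest probe, and its dimmer probe gave -0.13. SYVN1 (HRD1), the ubiquitin ligase of the complex (-0.01 ± 0.15), and DERL1 (0.23 ± 0.12) were not called. At 6 h the call of EDEM1 (0.55 ± 0.13, adjusted p = 0.00977) was lost without normoxia replicate 1 or 6 h replicate 1 (0.44 each, adjusted p = 0.187 and 0.186). At 12 h the calls of EDEM2 (0.41 ± 0.11, adjusted p = 0.00687) and DERL2 (-0.40 ± 0.14, adjusted p = 0.0442) were also lost when a single array was left out, EDEM2 without normoxia replicate 1 or 12 h replicate 2 (0.39 and 0.32, adjusted p = 0.0506 and 0.117), DERL2 without normoxia replicate 1 or 2 or 12 h replicate 1 (-0.46, -0.33 and -0.26, adjusted p = 0.0772, 0.218 and 0.348).

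Both translocation members fell at 24 h. SEC61A1, the channel's pore subunit, had 12.49 and 12.59 at 24 h, against 13.15 and 13.26 in normoxia (-0.67 ± 0.22, adjusted p = 0.0158). SEC61B, a small subunit, had 13.01 and 13.06 at 24 h, against 13.45 and 13.56 in normoxia (-0.47 ± 0.12, adjusted p = 0.00183). The groups did not overlap, but the call of SEC61A1 was lost without normoxia replicate 2 or 24 h replicate 1 (-0.62 each, adjusted p = 0.0877 and 0.0867).

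**Figure D3:**
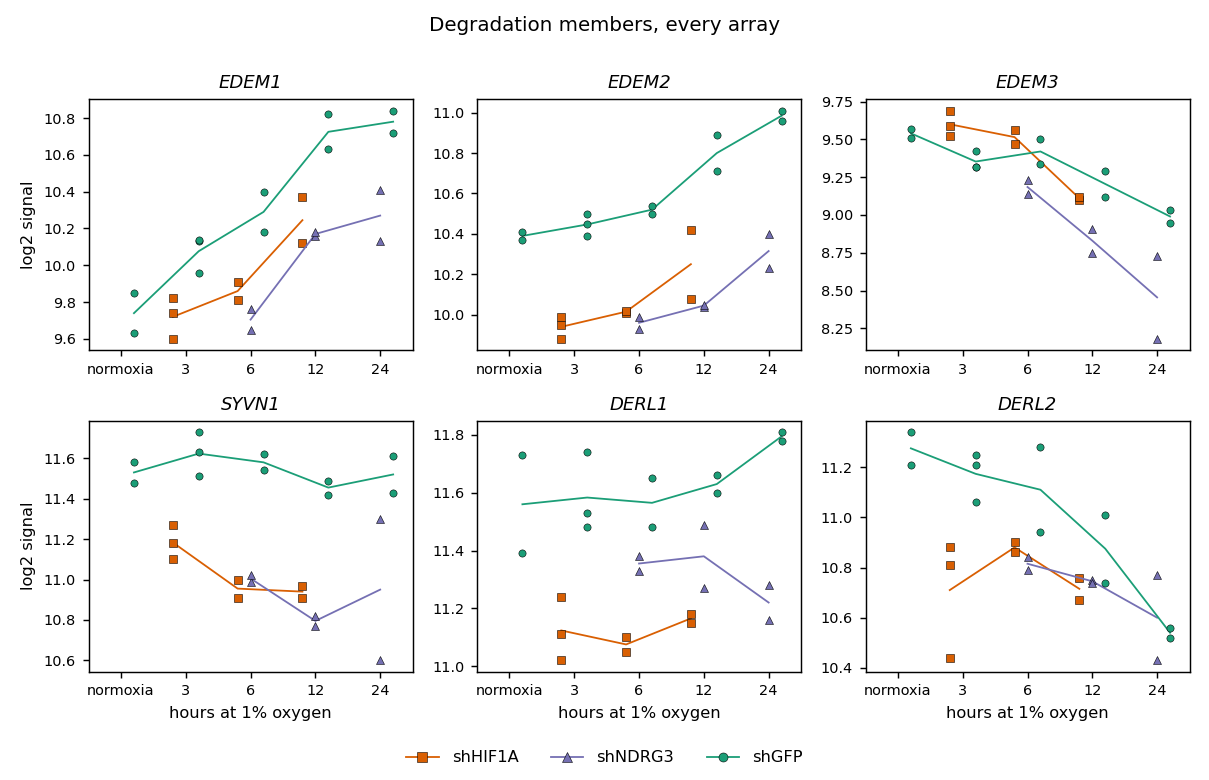
Log2 signal (y axes) of 6 degradation members on every array against hours at 1% oxygen (x axes, evenly spaced, normoxia at the left), for the shHIF1A, shNDRG3 and shGFP lines; lines join group means. EDEM1 in shGFP cells reached 10.84 and 10.72 at 24 h, EDEM3 fell to 8.95 and 9.03, and EDEM2 and SYVN1 were lower in both knockdown lines than in the shGFP line.

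Members were lower in the shHIF1A line. Averaged over 3, 6 and 12 h, 23 of the 35 were lower than in the shGFP line and 1 higher, against 18.8% lower and 19.2% higher among all genes, and the median change of the members was -0.42, against 0.00 over all genes. At 3 h 21 members were lower and 1 higher (background 13.3% lower and 11.8% higher). With median-centred arrays 11 were lower and 2 higher, against 1278 and 2098 of all genes. As deposited the split was 9 and 2, against 1136 and 2290. At 6 h 15 were lower (background 9.75% lower, 8.39% higher) and at 12 h 21 (background 12.4% lower, 10.9% higher). The 12 h count fell when shHIF1A 12 h replicate 1 was left out. None was called higher at 6 h or 12 h, where 1 and 0 members were higher at an unadjusted p under 0.05. By role, the averages were lower in 10 of 13 chaperones and helpers (median -0.70), 4 of 8 disulfide enzymes (-0.19), 3 of 4 sensing genes (-0.24), 5 of 8 measured degradation members (-0.35) and 1 of 2 translocation members (-0.41).

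At 3, 6 and 12 h 10, 8 and 10 of the 13 chaperones and helpers were lower, beside 13.3%, 9.75% and 12.4% of all genes. Several of these calls depended on single arrays. Leaving out 1 array ended the 3 h call of HYOU1 and the 6 h calls of SDF2L1, MANF and CRELD2. It also ended the 12 h calls of HSPA5, HSP90B1, MANF and SIL1, and the call of UGGT1 as higher at 3 h. HSPA5 at 12 h gave -0.65 and -0.62 without shGFP replicate 1 or 2, and -0.59 without shHIF1A replicate 1. HSPA5 had 9.80, 9.66 and 9.67 on the shHIF1A arrays at 3 h, against 10.66, 10.58 and 10.73 in shGFP cells. At 6 h it had 9.48 and 9.48 in shHIF1A cells, against 10.61 and 10.46 in shGFP cells, and at 12 h 9.30 and 9.40, against 9.97 and 10.00. No shHIF1A array reached the lowest shGFP array, and the average change was -0.88 ± 0.10 (1.84-fold, adjusted p = 1.58e-07). HSP90B1 lay between 13.29 and 13.75 on the 7 shHIF1A arrays, with a median of 13.52, against 14.11 to 14.33 with a median of 14.19 on the 7 shGFP arrays of the same times (-0.70 ± 0.08, adjusted p = 1.03e-07). CALR had 12.01 to 12.42, with a median of 12.09, against 12.77 to 13.08 with a median of 12.93 (-0.77 ± 0.06, adjusted p = 6.03e-10). The arrays of the lines did not overlap in either gene. SDF2L1 (-0.85 ± 0.11), DNAJB9 (-0.79 ± 0.06), CRELD2 (-0.77 ± 0.12), DNAJB11 (-0.73 ± 0.07), SIL1 (-0.59 ± 0.10), MANF (-0.54 ± 0.08) and HYOU1 (-0.39 ± 0.07) were also lower. UGGT1 was the only called member on the other side, with 8.59 to 8.88 in shHIF1A cells, against 8.21 to 8.48 in shGFP cells (0.31 ± 0.08, adjusted p = 0.0041). CANX (-0.08 ± 0.06) and DNAJC3 (0.01 ± 0.07) were not called.

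ERO1A was the disulfide enzyme with the largest difference. It had 10.38, 10.41 and 10.52 in shHIF1A cells at 3 h, against 10.73, 10.91 and 10.89 in shGFP cells. At 12 h it had 11.38 and 11.30 in shHIF1A cells, against 12.87 and 12.59 in shGFP cells. The difference widened with time, at -0.41 ± 0.10 at 3 h, -0.98 ± 0.12 at 6 h and -1.40 ± 0.12 at 12 h, and the change of the effect, 12 h minus 3 h, was -0.99 ± 0.15 (adjusted p = 0.00209). It was the only member called in that test (background 0.676% lower and 0.551% higher), in which 1 member was higher and 3 lower at an unadjusted p under 0.05. ERO1A nevertheless rose between 3 h and 12 h within the shHIF1A line (0.90 ± 0.11, adjusted p = 2.2e-06), as it did within the shGFP line (1.89 ± 0.11, adjusted p = 2.09e-11). PDIA4 (-0.54 ± 0.09), PDIA6 (-0.52 ± 0.06) and PDIA5 (-0.22 ± 0.05) were lower too, while TXNDC5 (0.18 ± 0.08, adjusted p = 0.081) and DNAJC10 (-0.09 ± 0.10) were not called.

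EIF2AK3 was the sensing gene with the largest difference in the shHIF1A line, with 8.13 to 8.90 there, against 9.09 to 9.47 in shGFP cells (-0.75 ± 0.09, adjusted p = 2.78e-07). XBP1 was lower by a small amount (-0.25 ± 0.08, adjusted p = 0.00951), with overlapping arrays, and its call was lost without shHIF1A 6 h replicate 1 (-0.21, adjusted p = 0.0522). ERN1 (-0.22, adjusted p = 0.0044) was also lower, with overlapping arrays and a probe near or below the array median on all of them. ATF6 was not called (-0.10 ± 0.08, adjusted p = 0.418). Of the degradation members, SYVN1 (-0.53 ± 0.08), EDEM2 (-0.52 ± 0.06), DERL1 (-0.47 ± 0.07) and EDEM1 (-0.42 ± 0.07) were lower, and so was DERL2 by its brightest probe (-0.29 ± 0.08), for which the dimmer probe gave 0.10. SEC61A1 was lower (-0.72 ± 0.12, adjusted p = 3.82e-05) and SEC61B was not called (-0.11 ± 0.06).

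**Figure D4:**
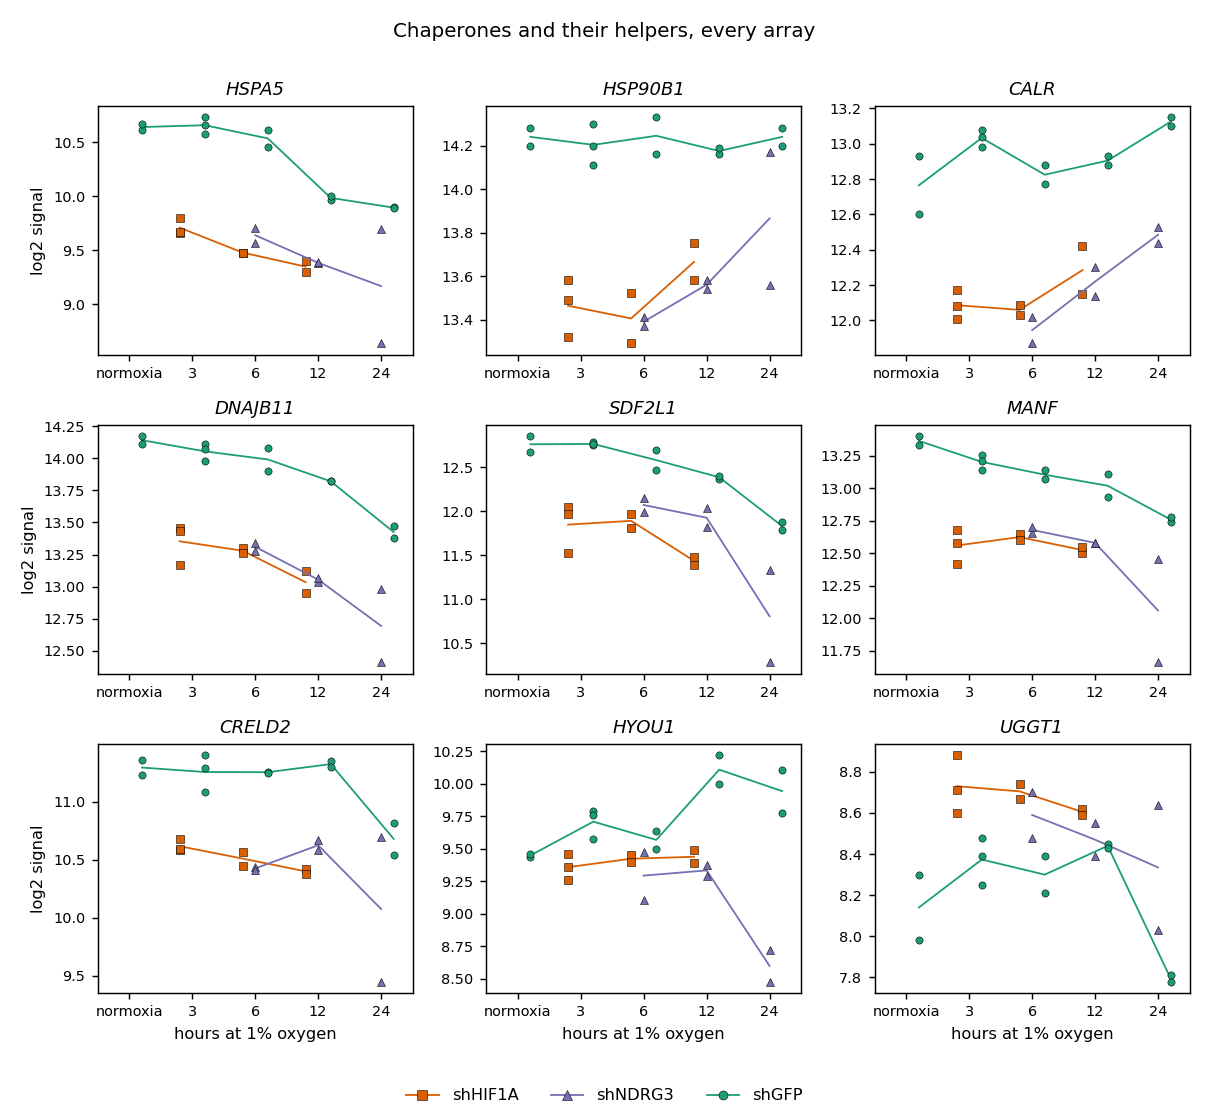
Log2 signal (y axes) of 9 chaperones and helpers on every array against hours at 1% oxygen (x axes, evenly spaced, normoxia at the left), for the shHIF1A, shNDRG3 and shGFP lines; lines join group means. For HSPA5 every array of the knockdown lines lay below every shGFP array, and the shNDRG3 arrays at 24 h stood apart from each other in HSPA5 (8.64 and 9.70), SDF2L1 (10.28 and 11.33) and CRELD2 (9.45 and 10.70).

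Members were lower in the shNDRG3 line as well. This comparison shares its shGFP arrays at 6 h and 12 h with the one above, so the likeness of their values is no independent result. Averaged over 6, 12 and 24 h, 25 of the 35 were lower than in the shGFP line and 1 higher, against 20.9% lower and 22.7% higher among all genes. The 25 include ERN1, which passed the filter through shGFP cells at 24 h. The median change of the members was -0.55, against 0.02 over all genes. Without the 24 h groups the count was 23 lower and 0 higher, against 2782 and 2874 of all genes. At 6 h 18 members were lower (background 13.2% lower, 12.1% higher) and at 12 h 20 (background 14% lower, 13.4% higher). None was called higher at these times, also at an unadjusted p under 0.05. At 24 h 23 were lower, again with ERN1 among them, and 2 higher (background 16.1% lower and 17.2% higher). By role, the averages were lower in 10 of 13 chaperones and helpers (median -0.66), 6 of 8 disulfide enzymes (-0.53), 3 of 4 sensing genes (-0.78, with ERN1 among them), 5 of 8 measured degradation members (-0.36) and 1 of 2 translocation members (-0.20).

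The chaperone differences rested in part on the shNDRG3 24 h arrays, and calls at 6 h and 12 h also depended on single arrays. Leaving out 1 array ended the 6 h calls of MANF, SIL1, PDIA4, ERN1 and EIF2AK3. At 12 h it ended those of HSPA5, MANF, CRELD2, PDIA6, TXNDC5, ERN1 and EDEM3. HSPA5 lost its 12 h call without any single 12 h array of either line (-0.62 to -0.58). HSPA5 had 9.71 and 9.57 in shNDRG3 cells at 6 h, against 10.61 and 10.46 in shGFP cells, and 9.38 and 9.39 at 12 h, against 9.97 and 10.00. At 24 h it had 8.64 and 9.70, against 9.90 and 9.89. The average was -0.74 ± 0.11 (adjusted p = 3.19e-06), and no call of an average was lost when either 24 h array was left out. At 24 h alone, 9 calls were lost without shNDRG3 24 h replicate 1, among them HSPA5 (-0.73 with it and -0.20 without, adjusted p = 0.212), HSP90B1 (-0.38 and -0.07, adjusted p = 0.739), MANF (-0.70 and -0.30, adjusted p = 0.0552), SIL1 (-0.50 and -0.30, adjusted p = 0.284) and CRELD2 (-0.61 and 0.02, adjusted p = 0.938). The other 4 were PDIA4 (-0.35, adjusted p = 0.0879), EDEM3 (-0.26, adjusted p = 0.105), SYVN1 (-0.22, adjusted p = 0.169) and the dim DERL3 (0.34, adjusted p = 0.103). Without replicate 2 the 24 h calls of UGGT1 (0.24, adjusted p = 0.256) and DERL3 (0.38, adjusted p = 0.0738) were lost. Leaving out a shGFP 24 h array also ended calls: without replicate 1 HSP90B1 (-0.42, adjusted p = 0.091), SIL1 (-0.47, adjusted p = 0.161), EIF2AK3 (-0.30, adjusted p = 0.208) and DERL3 (0.26, adjusted p = 0.287), and without replicate 2 HSP90B1 (-0.33, adjusted p = 0.201), CRELD2 (-0.47, adjusted p = 0.235), SIL1 (-0.53, adjusted p = 0.113) and SYVN1 (-0.48, adjusted p = 0.053). How many members were called at 24 h also depended on which shNDRG3 array was left out.

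DNAJB9 was called lower at each of the 3 times. It had 9.08 and 9.42 in shNDRG3 cells by 6 h, 9.08 and 9.14 by 12 h and 9.31 and 9.24 by 24 h, against 10.10 and 10.07, 10.40 and 10.31, and 11.36 and 11.20 in shGFP cells. The arrays of the lines did not overlap, and the average difference was the largest among the members (-1.36 ± 0.07, 2.57-fold, adjusted p = 2.54e-14). HYOU1 had 8.72 and 8.48 in shNDRG3 cells at 24 h, against 9.78 and 10.11 in shGFP cells (average -0.79 ± 0.08, adjusted p = 7.4e-09), and was not called at 6 h (-0.27, adjusted p = 0.158). CALR (-0.74 ± 0.07), DNAJB11 (-0.72 ± 0.08), CRELD2 (-0.71 ± 0.12), SDF2L1 (-0.66 ± 0.12), HSP90B1 (-0.62 ± 0.08), MANF (-0.52 ± 0.09) and SIL1 (-0.50 ± 0.11) were lower on average. UGGT1 was higher (0.29 ± 0.09, adjusted p = 0.00877), but not over 6 h and 12 h alone (0.16, adjusted p = 0.262), and its average was 0.19 without shNDRG3 24 h replicate 2 (adjusted p = 0.04).

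In the shNDRG3 average 6 of the 8 disulfide enzymes were lower, beside 20.9% of all genes. ERO1A had 10.51 and 10.39 in shNDRG3 cells by 6 h, 11.37 and 11.45 by 12 h and 12.81 and 12.72 by 24 h, against 11.59 and 11.77, 12.87 and 12.59, and 13.32 and 13.64 in shGFP cells. It was lower at every time (average -1.09 ± 0.07, adjusted p = 3.24e-12), and within the shNDRG3 line it rose between 6 h and 24 h (2.31 ± 0.12, adjusted p = 5.07e-13, and 2.27 or 2.35 without replicate 1 or 2 at 24 h), as in the shGFP line (1.80 ± 0.12, adjusted p = 3.56e-11). PDIA5 (-0.78 ± 0.06), PDIA6 (-0.70 ± 0.06) and PDIA4 (-0.69 ± 0.10) were lower on average. TXNDC5 (-0.36 ± 0.08) and DNAJC10 (-0.34 ± 0.10) were lower over the 3 times but not over 6 h and 12 h alone (-0.15 and -0.30, adjusted p = 0.289 and 0.0654), and the average of DNAJC10 was -0.22 without shNDRG3 24 h replicate 1 (adjusted p = 0.0371).

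XBP1 was higher at 24 h than at 6 h in the shGFP line, and whether it was called between these times in the shNDRG3 line depended on 1 array. XBP1 had 11.44 and 11.33 in shNDRG3 cells by 6 h, 11.36 and 11.32 by 12 h and 11.77 and 11.17 by 24 h, against 12.02 and 12.04, 12.26 and 12.23, and 13.16 and 13.28 in shGFP cells. The difference of 24 h minus 6 h was 0.09 ± 0.14 within the shNDRG3 line (adjusted p = 0.688; -0.22 without 24 h replicate 1, adjusted p = 0.214, and 0.39 without replicate 2, adjusted p = 0.016) and 1.19 ± 0.14 within the shGFP line (adjusted p = 2.99e-07). ERN1 had 6.83 and 6.65 in shNDRG3 cells at 24 h, against 8.41 and 8.58 in shGFP cells. All shNDRG3 levels of ERN1 lay below the array median.

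The difference in the change of effect between 6 h and 24 h was itself tested, and 5 members passed, all with a lower effect at 24 h (background 4.64% lower and 6.03% higher; 2 members were higher at an unadjusted p under 0.05, and none after adjustment). By the second brightest probe 4 members were lower and 1 higher (707 and 920 of all genes). DNAJB9 and ERN1 have no second probe, so a lower call of HYOU1, XBP1 or TXNDC5 was lost there. When only the arrays compared were fitted 3 were lower and 0 higher (262 and 330 of all genes), so calls among the 5 were lost there too. Of the 5 members, ERN1 (-1.43) is no test of the shNDRG3 effect. The other 3 groups lay at or below the array median, and the value restates its level in shGFP cells at 24 h. The other 4 were DNAJB9 (-1.17 ± 0.16, adjusted p = 3.03e-05), XBP1 (-1.10 ± 0.20, adjusted p = 0.000561), HYOU1 (-1.07 ± 0.19, adjusted p = 0.000479) and TXNDC5 (-0.93 ± 0.21, adjusted p = 0.00414). With replicate 1 or replicate 2 of the shNDRG3 24 h group left out, these values were -1.21 and -1.14 for DNAJB9, -1.40 and -0.80 for XBP1, -1.19 and -0.95 for HYOU1 and -0.62 and -1.25 for TXNDC5, and each passed. Which other members were called, however, depended on these arrays. The members added without replicate 1 were higher, HSPA5 (0.70), HSP90B1 (0.78), CRELD2 (0.84), UGGT1 (0.55), ATF6 (0.61) and SEC61A1 (0.97). Those added without replicate 2 were SDF2L1 (-1.04), MANF (-0.68) and EDEM3 (-0.57) on the lower side and ERO1A (0.55) on the higher.

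Of the remaining members, EIF2AK3 had 8.20 to 8.56 on the shNDRG3 arrays, against 8.63 to 9.25 on the shGFP arrays of the same times (-0.70 ± 0.09, adjusted p = 1.16e-06). ATF6 had 11.63 to 11.84 in shNDRG3 cells at 6 h and 12 h, against 11.58 to 11.87 in shGFP cells. At 24 h it had 10.66 and 11.48 in shNDRG3 cells, against 10.92 and 10.93 in shGFP cells. It was not called on average (0.03 ± 0.09, adjusted p = 0.83), but without shNDRG3 24 h replicate 1 the average was 0.17 (adjusted p = 0.0184) and the 24 h value 0.56 (adjusted p = 0.000281). Without replicate 2 they were -0.11 and -0.27 (adjusted p = 0.151 and 0.0836). The degradation members EDEM2 (-0.66 ± 0.06), SYVN1 (-0.60 ± 0.08), EDEM1 (-0.55 ± 0.07), EDEM3 (-0.38 ± 0.08) and DERL1 (-0.34 ± 0.07) were lower on average. SEC61A1 had 11.75 and 12.91 in shNDRG3 cells at 24 h, against 12.49 and 12.59 in shGFP cells. Its average was lower (-0.40 ± 0.13, adjusted p = 0.0127), at -0.21 without shNDRG3 24 h replicate 1 (adjusted p = 0.0436) and -0.60 without replicate 2 (adjusted p = 1.14e-06). SEC61B was not called (0.00 ± 0.07, adjusted p = 0.995).

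Markers of other cell types were summed in each line. The summed linear signal of 7 blood markers ranged over 2930 to 4140 on the shHIF1A arrays and 2300 to 6990 on the shNDRG3 arrays, against 7650 to 12900 on the shGFP hypoxia arrays. Without CD68, a lysosomal protein, the sums were 735 to 870, 786 to 950 and 817 to 1180 in the same order. PTPRC and CD3E lay below the array median in every group. In their highest groups CSF1R, LYZ, CD14 and HBB lay 1.62, 0.63, 0.45 and 0.21 above it. The 16 hepatocyte markers summed to 2120 to 2370 and 2150 to 2330 in the knockdown lines and to 2380 to 2680 in shGFP hypoxia. Fibroblast markers summed to 1170 to 1380 and 1210 to 1390, against 1190 to 1320, and endothelial markers to 762 to 898 and 678 to 948, against 903 to 1120. Their part in the results was not tested.

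Set against each other over 6 h and 12 h, the shHIF1A and shNDRG3 lines differed in 4 members, 3 higher and 1 lower in shHIF1A cells, against 8.52% higher and 7.25% lower among all genes. With median-centred arrays 3 were higher and 0 lower, against 1333 and 509 of all genes. As deposited the split was 2 and 0, against 1123 and 564. DERL1 was the lower call that was lost, and it was also lost with normexp background, without a probe filter and with an intensity trend. XBP1 had 11.79 and 12.06 (6 h) and 11.80 and 11.79 (12 h) in shHIF1A cells, against 11.44 and 11.33 and 11.36 and 11.32 in shNDRG3 cells (0.50 ± 0.10, adjusted p = 0.000773). PDIA5 had 9.85 to 10.20 in shHIF1A cells, against 9.43 to 9.55 in shNDRG3 cells (0.48 ± 0.07, adjusted p = 2.03e-05). In both genes the arrays of the lines did not overlap. EDEM3 was higher in shHIF1A cells (0.31 ± 0.09, adjusted p = 0.0241) and DERL1 lower (-0.25 ± 0.09, adjusted p = 0.0497). Each of these calls was lost under several omissions of 1 array, with 0.27 to 0.31 for EDEM3 without either shHIF1A 12 h array, shHIF1A 6 h replicate 1, shNDRG3 6 h replicate 2 or shNDRG3 12 h replicate 1. For DERL1 the values were -0.26 to -0.20 without any single array of the 8 but shNDRG3 12 h replicate 1. No chaperone or helper was called by limma, with changes from -0.33 (SDF2L1) to 0.14 (DNAJB9) and 1 of 13 lower at an unadjusted p under 0.05. The widest interval among them was that of CRELD2 (-0.39 to 0.24).

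The start regions of the members were searched for the motifs of the unfolded protein response and of the hypoxia response, because promoters of several members are known to carry such elements. RefSeq promoters (GRCh38.p14, 250 bases before to 50 after each start) were at hand for 33 of the 36 genes; PDIA3, DERL1 and DERL3 had none in the table. The ER stress element, the sequence CCAAT followed 9 bases later by CCACG and bound by ATF6 with a CCAAT-binding factor, was found on either strand in 8 of the 33 genes (24.2%), against 25 of the 27305 genes with a promoter in the table (0.0916%). The element was defined on promoters of genes of this kind, so this share is a description. The 9 elements are shown in the direction of each gene with the matching bases in capitals; on the opposite strand the element reads CGTGG, 9 bases, ATTGG.
HSPA5, chr9:125241386-125241414, minus strand: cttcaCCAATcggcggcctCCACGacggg
HSP90B1 distal, chr12:103930211-103930239, plus strand: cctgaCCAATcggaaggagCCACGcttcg
HSP90B1 proximal, chr12:103930316-103930344, plus strand: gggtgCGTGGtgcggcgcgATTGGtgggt
CALR, chr19:12938379-12938407, plus strand: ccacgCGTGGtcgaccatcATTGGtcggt
CANX, chr5:179698773-179698801, plus strand: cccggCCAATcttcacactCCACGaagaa
CRELD2, chr22:49918549-49918577, plus strand: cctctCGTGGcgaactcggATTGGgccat
PDIA6, chr2:10812848-10812876, minus strand: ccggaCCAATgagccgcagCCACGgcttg
ERO1B, chr1:236282178-236282206, minus strand: gcccgCGTGGtcccgcctcATTGGccgcc
XBP1, chr22:28800598-28800626, minus strand: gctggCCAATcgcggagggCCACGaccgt

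The elements began 66 bases upstream of the annotated start in HSPA5, 52 in XBP1, 80 in CRELD2, 86 in PDIA6 and 89 in HSP90B1, whose distal copy began 194 bases upstream. Genes with the element moved in both directions after 24 h of hypoxia: PDIA6 (0.71), XBP1 (0.81) and CALR (0.36) were higher, HSPA5 (-0.74) and CRELD2 (-0.61) were lower, and HSP90B1, CANX and the dim ERO1B were not called. In the knockdown averages 6 of the 8, all but CANX and ERO1B, were lower in each line, where 23 and 25 of all 35 members were lower, and no difference by the element was tested. The comparisons share shGFP arrays. The motif TGACGTGG, to which XBP1 and ATF6 bind, lay in 3 of the 33 genes (9.09%) and in 0.927% of all genes with a promoter. It holds ACGTG and, read on the opposite strand, CCACG.
HYOU1, chr11:119057381-119057398, minus strand: ccccgTGACGTGGtccaa
TXNDC5, chr6:7910157-7910174, minus strand: gcggcTGACGTGGcgctc
DNAJC10, chr2:182716127-182716144, plus strand: caccgCCACGTCAaccta

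Of the core motifs of the hypoxia response element, ACGTG was found in 18 of the 33 genes (54.5%) and 24.9% of all genes with a promoter, and GCGTG in 21 genes (63.6%) and 40.6% of all. CCAAT alone lay in 26 genes (78.8%, against 39.7% of all genes) and CCACG alone in 24 (72.7%, against 42.1%); both include the copies inside the ER stress element. ERO1A, the member with the largest rise, held 1 ACGTG and 2 GCGTG in its window. The ACGTG and the GCGTG nearest to it are shown, both read on the opposite strand.
ERO1A distal, chr14:52695719-52695733, minus strand: agcctCACGCggcgg
ERO1A proximal, chr14:52695663-52695677, minus strand: cgcggCACGTccaca

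Other genes of the pathway, in lists that hold no member, give the setting, to be read beside the 21.1% higher and 24.2% lower of all genes at 24 h. At 24 h of hypoxia 13 of 15 other HIF target genes were higher and 0 lower, with a median of 2.46, among them the glycolytic ALDOC (4.01 ± 0.11) and PFKFB4 (3.98 ± 0.12). Of 23 other ER oxidoreductases and folding enzymes, 8 were higher and 5 lower, led by the sulfhydryl oxidase QSOX1 (2.57 ± 0.14) and VKORC1, the vitamin K epoxide reductase (1.30 ± 0.10). The PERK and ATF4 branch had 9 of 18 higher and 5 lower, with PPP1R15A, which restores translation (1.81 ± 0.11), higher. The lipoprotein receptor VLDLR was called higher too (2.19 ± 0.11). It averaged 6.71 in normoxia, below the array median of 7.03, so its passing the filter rested on other groups. Its values are given as description. Other degradation genes had 6 of 20 higher and 5 lower, with the glycanase NGLY1 (1.42 ± 0.13) and the lectin OS9 (1.10 ± 0.12) higher. Translocon genes had 4 of 25 higher and 6 lower, with SRPRB, a subunit of the signal recognition particle receptor, at -2.08 ± 0.18 and TRAM2 at 1.43 ± 0.13. N-glycosylation genes had 6 of 26 higher and 9 lower, with the mannosyltransferase ALG1 (-1.23 ± 0.16) and the glucosyltransferase ALG8 (-1.08 ± 0.15) lower.

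In the shHIF1A average, beside 18.8% lower and 19.2% higher of all genes, 11 of 23 other folding enzymes were lower and 3 higher. P4HB, the founding protein disulfide isomerase (-0.97 ± 0.05), and the proline isomerase FKBP2 (-0.68 ± 0.06) were lower. The PERK and ATF4 branch had 9 of 18 lower and 3 higher, with VLDLR (-0.96 ± 0.06) and PPP1R15A (-0.89 ± 0.06) lower. VLDLR averaged 6.86 in shHIF1A cells, below the array median, so its value is again description. Other HIF targets had 11 of 15 lower and 1 higher, with PFKFB4 (-1.97 ± 0.06) and the mitophagy receptor BNIP3 (-1.25 ± 0.06). The degradation list had 4 of 20 lower and 5 higher (MARCHF6, 0.50 ± 0.07; UBAC2, 0.31 ± 0.07), the translocon list 8 of 25 lower and 5 higher (GET1, 0.85 ± 0.10; SSR4, -0.45 ± 0.05), and the glycosylation list 7 of 26 lower and 6 higher (ALG14, 0.81 ± 0.07; ALG9, -0.73 ± 0.07).

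In the shNDRG3 average, beside 20.9% lower and 22.7% higher of all genes, 10 of 23 other folding enzymes were lower and 4 higher (P4HB, -0.70 ± 0.05; TXNDC12, 0.64 ± 0.07), and 9 of 18 genes of the PERK and ATF4 branch were lower and 4 higher, with the stress regulators NUPR1 (-1.38 ± 0.08) and DDIT3 (-1.17 ± 0.08) lower. Other HIF targets had 10 of 15 lower and 2 higher, with the collagen prolyl hydroxylase P4HA2 (-0.81 ± 0.08) and the enolase ENO2 (-0.68 ± 0.08). The degradation list had 6 of 20 lower and 3 higher (SELENOS, -0.58 ± 0.07; MAN1B1, -0.48 ± 0.09), the translocon list 9 of 25 lower and 6 higher (GET1, 0.64 ± 0.10; SRP72, 0.44 ± 0.08), and the glycosylation list 7 of 26 lower and 6 higher (MOGS, the first glucosidase of glycan trimming, -0.92 ± 0.08; ALG14, 0.87 ± 0.08).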

How the data were processed

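The deposited table holds linear probe intensities of 24 Illumina bead arrays (47231 probes). Per the labels' protocols, RNA was purified with RNeasy columns, amplified with an Illumina TotalPrep kit and labelled with biotin. The sources used here give no scanner software, background correction or normalisation; array medians were 115 to 150. The intensities were taken to log2 and quantile normalised. A probe was kept if it exceeded its array's median on at least 2 arrays (31100 probes), and the brightest kept probe stood for each of 15246 genes. Of the probes, 30113 had 1 gene symbol in the platform annotation, 8 several and 17110 none. A group-means model over all 24 arrays was fitted with limma 3.58.1 in R 4.3.3, two-sided, with Benjamini-Hochberg adjustment within each contrast at 0.05; the steps were tested on simulated data. Members and gene lists were chosen with earlier results of these data known. Members were described by role, and from each other list the 2 genes with the smallest p were named per main comparison. Promoters were RefSeq's for GRCh38.p14. Alternatives were other scalings, background correction, probe filters and choices, an intensity trend, array weights, fewer arrays and a replicate block. The number of arrays limits the precision.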

Additional observations from a re-analysis of the deposited data

Results flagged for a closer look

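The results below were singled out because the effect of a knockdown differed between lines or between times by a test of the difference itself. Between the lines, over 6 h and 12 h, shHIF1A minus shNDRG3 was 0.50 for XBP1, 0.48 for PDIA5, 0.31 for EDEM3 and -0.25 for DERL1. The calls of EDEM3 and DERL1 rested on single arrays, and DERL1 was not called with median-centred arrays or as deposited. It was also not called with normexp background, without a probe filter or with an intensity trend. Between times, the effect of shHIF1A on ERO1A changed by -0.99 (12 h minus 3 h). The effect of shNDRG3 changed by -1.17 for DNAJB9, -1.10 for XBP1, -1.07 for HYOU1 and -0.93 for TXNDC5 (24 h minus 6 h). The 24 h shNDRG3 arrays behind the last 4 values stood apart from each other, and with either left out each kept its sign. By the second brightest probe 1 member was higher and 4 lower in this contrast (920 and 707 of all genes). DNAJB9 and ERN1 have no second probe, so a lower call of HYOU1, XBP1 or TXNDC5 was lost there. When only the arrays compared were fitted, 0 were higher and 3 lower (330 and 262 of all genes). A call of DNAJB9, XBP1, HYOU1 or TXNDC5 was therefore lost in that fit too. ERN1 had -1.43 in the same contrast, but its probe lay at or below the array median in 3 of the 4 groups and passed the filter through shGFP cells at 24 h, so this value only restates its level there. Causes were not tested.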

How the results depend on the processing

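Of 9075 member values under the alternatives, 8616 kept their side of the threshold, 310 lost and 136 gained a call, and 13 reversed. A change of sign counted as a reversal only where the value was called in either fit. Uncalled values that changed sign are therefore among the 8616. Of 166 counts of called members, omissions aside, 148 stayed within 1.5 times. With the signals as deposited, 24 h hypoxia values reversed for HSP90B1 (-0.42), HYOU1 (-0.15), CALR (-0.20), CANX (-0.49), PDIA5 (-0.09), EDEM2 (-0.06) and DERL1 (-0.41). By the second brightest probe DERL2 reversed at 12 h hypoxia (0.01) and for shHIF1A on average (0.10), at 3 h (0.05) and at 12 h (0.38), and TXNDC5 at 24 h hypoxia (0.08). CRELD2 for shNDRG3 at 24 h reversed without replicate 1 of that group (0.02) and was -1.23 without replicate 2. Counts of called members moved as follows. With median-centred arrays they were 0 at 3 h and 1 at 6 h of hypoxia and 13 for shHIF1A at 3 h. As deposited they were 0 at 3 h and 13 at 12 h of hypoxia, 11 and 13 for shHIF1A at 3 h and 12 h, 16 for shNDRG3 at 24 h and 2 between the knockdown lines. Normexp background or the mean of probes gave 2 at 3 h of hypoxia. At 12 h of hypoxia the added calls were mostly lower, with 11 of the 13 as deposited, where 4832 of all 15246 genes were lower too. Array weights gave 13 at 12 h of hypoxia (8 lower) and 7 between the lines. Fitting only the arrays compared gave 12 at 12 h of hypoxia (7 lower), 10 for shNDRG3 at 24 h, 7 between the lines and 3 for the shNDRG3 effect at 24 h minus 6 h. The causes were not tested. The shNDRG3 average over 6 h and 12 h alone, and the omissions within the shNDRG3 line, were chosen after seeing the data. Leaving out 1 array at a time, which leaves 1 or 2 arrays in its group, a lone array being assumed to vary like the other groups, gave 0 to 1, 1 to 2, 4 and 20 to 23 called members at 3, 6, 12 and 24 h of hypoxia. For shHIF1A it gave 23 to 25 on average and 19 to 21, 10 to 12 and 13 to 16 at 3, 6 and 12 h. For shNDRG3 it gave 26 to 27 on average and 13 to 15, 14 to 16 and 17 to 26 at 6, 12 and 24 h. Between the lines it gave 2 to 3, for the change of the shHIF1A effect 1 and of the shNDRG3 effect 5 to 11. All-gene counts under these omissions are not given here, so the ranges do not set the members against all genes. Replicate numbers are shared between groups. Over 111 same-numbered pairs of arrays the correlation of deviations was -0.10 to 0.28 with a median of -0.00, and 8 exceeded 0.1. The numbers were therefore not taken to pair the arrays. With a replicate block the count at 3 h of hypoxia was 2, and no other count moved by over 1.5 times. Probes near the array median limit what PDIA3, ERO1B, ERN1, SEL1L and DERL3 can show.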
